A study of Homo sapiens with 15 samples.

Results

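The 3 ID2-labelled and 3 ID3-labelled RNA-seq libraries of a U87MG overexpression series were compared directly. They are 6 of the 15 libraries of the series, and were chosen by their group labels alone. U87MG is an established human glioblastoma cell line. The cells of every group carried a lentivirus, made in HEK293FT cells and applied with hexadimethrine bromide, and RNA was taken 24 h after transduction. The groups used here were labelled ID2 and ID3 for the overexpressed gene, and the 3 GFP-labelled libraries served as the vector background; ID1- and ID4-labelled libraries are given as reference levels only. The labels do not say whether the 3 libraries of a group came from separate cultures, so p-values measure only the spread between these libraries. Of 25737 entries in the table, 12824 had a mean of 10 or more counts over the 6 libraries and were tested.

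ID proteins are helix-loop-helix proteins without a DNA-binding region. They pair with E proteins such as TCF3, TCF4 and TCF12 and keep them from binding E-box sequences (CANNTG), and they are known for holding progenitor cells in an undifferentiated, dividing state. ID2 and ID3 are close relatives with overlapping partners, so a direct comparison asks which transcripts part cells labelled for one from cells labelled for the other.

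RAD50, SGCD, POT1 and NPRL2, genes with large differences in opposite directions, are shown by the 250 bases before their RefSeq start (assembly GRCh38.p14), because E-boxes are the letters that the partners of ID proteins read. The first pair had higher levels in ID2-labelled cells and the second pair in ID3-labelled cells. Bases are in gene orientation, 5′ to 3′, and capitals mark each CANNTG. The windows are chr5:132556727-132556976 (plus strand) for RAD50, chr5:156326914-156327163 (plus strand) for SGCD, chr7:124929826-124930075 (minus strand) for POT1 and chr3:50350776-50351025 (minus strand) for NPRL2.
RAD50: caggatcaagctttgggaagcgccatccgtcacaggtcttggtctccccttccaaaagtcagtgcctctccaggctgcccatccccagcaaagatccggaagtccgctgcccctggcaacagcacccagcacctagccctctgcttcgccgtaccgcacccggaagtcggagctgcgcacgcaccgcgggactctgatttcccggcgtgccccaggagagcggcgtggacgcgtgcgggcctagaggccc
SGCD: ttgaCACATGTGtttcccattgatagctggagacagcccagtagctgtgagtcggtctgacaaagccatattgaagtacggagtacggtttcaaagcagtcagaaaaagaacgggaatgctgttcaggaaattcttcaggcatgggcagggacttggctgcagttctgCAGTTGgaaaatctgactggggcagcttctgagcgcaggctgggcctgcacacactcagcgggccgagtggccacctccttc
POT1: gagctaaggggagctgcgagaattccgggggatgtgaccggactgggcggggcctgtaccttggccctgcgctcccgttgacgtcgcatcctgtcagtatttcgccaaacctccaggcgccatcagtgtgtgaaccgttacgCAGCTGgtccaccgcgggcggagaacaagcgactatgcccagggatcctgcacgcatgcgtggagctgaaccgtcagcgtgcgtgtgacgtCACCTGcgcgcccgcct
NPRL2: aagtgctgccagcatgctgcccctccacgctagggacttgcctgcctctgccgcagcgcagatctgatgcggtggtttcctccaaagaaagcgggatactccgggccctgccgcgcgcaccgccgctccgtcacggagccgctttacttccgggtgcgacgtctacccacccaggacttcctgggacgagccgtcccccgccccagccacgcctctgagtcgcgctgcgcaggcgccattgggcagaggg
The RAD50 and NPRL2 windows held no CANNTG. The SGCD window held CAGTTG and a stretch in which 2 forms of the motif overlap, and the POT1 window held CAGCTG and further along CACCTG. This pattern reads the same on both strands, so 1 strand was searched. At least 1 CANNTG stood in 62.2% of the 27305 promoter windows of that length, in 53.03% of those of 10014 tested genes, in 52.9% of 418 genes higher in ID2-labelled cells and in 58.9% of 419 genes higher in ID3-labelled cells. The form CAGCTG stood in 13.8%, 12.3%, 12.7% and 16.9% of the same sets, and CACGTG in 6.49%, 9.02%, 7.42% and 9.55%. These shares describe letters in a window and were not tested.

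The 6 libraries held between 13369680 and 14454067 counts, so that 3 counts were worth 0.208 to 0.224 CPM (counts per 1e6 counts, scaled by TMM over the 6 libraries). The glial and mesenchymal filament gene VIM stood at 4059 to 4809 CPM in ID2-labelled and 3742 to 3923 CPM in ID3-labelled libraries. The glioma stem cell marker gene NES was at 21.9 to 26.8 and 17.8 to 20.98 CPM. The hyaluronan receptor gene CD44 went the other way, at 504 to 526 CPM in ID2-labelled and 551 to 572 CPM in ID3-labelled libraries. For VIM, NES and CD44 the ranges of the groups did not overlap, as was the case at 3643 of all 12824 tested genes (28.4%). The glial markers GFAP, S100B and SOX2 were at or near 0 (at most 0.295 CPM), as were the defining markers of oligodendrocytes, endothelium and epithelium (at most 1.11 CPM). Summed markers of neurons reached 24.1 to 36.0 CPM in ID2-labelled and 16.6 to 26.03 CPM in ID3-labelled libraries, most of it from SNAP25 and 2.52 to 3.41 CPM from SYT1, and those of microglia 4.33 to 5.38 and 5.48 to 6.08 CPM, mostly from CSF1R; their part in any result was not tested, and in bulk RNA fewer cells of a type cannot be told apart from less RNA per cell. ID2 replicate 3 stood apart. The SD of its log2 differences from the other ID2-labelled libraries was 0.296 and 0.298, against 0.178 between those libraries and 0.196 to 0.214 among ID3-labelled libraries. All 40 genes in which it deviated most were lower in it, and 39 of them were also lower in ID3 replicate 2; CRTC2, for example, stood at 20.1, 15.3 and 0.988 CPM in ID2 replicates 1 to 3 and at 12.7, 5.54 and 15.6 CPM in ID3 replicates 1 to 3. The count of called genes is therefore also given without ID2 replicate 3, and so are the counts of some lists.

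**Figure D1:**
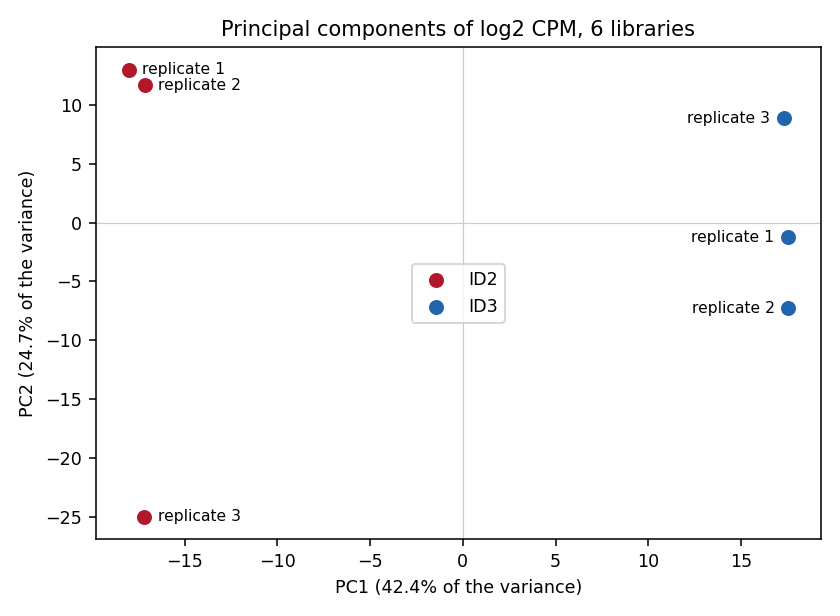
Each point is 1 library, placed by the first (x axis, 42.4% of the variance) and second (y axis, 24.7%) principal component of log2 CPM. The groups lie on opposite sides of the x axis, at -18.0 to -17.2 and at 17.3 to 17.5, and ID2 replicate 3 lies alone at -25.0 on the y axis.

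The labels could not be checked by the transcripts they name. ID2 mRNA was at 44, 45.1 and 47.2 CPM in the ID2-labelled libraries and at 45, 48.6 and 45.2 CPM in the ID3-labelled libraries. The groups overlap, and both lie below the GFP-labelled libraries (84 to 88.2 CPM). ID3 mRNA was at 270.1, 321 and 280.2 CPM in ID2-labelled and 310.5, 322 and 298 CPM in ID3-labelled libraries, again overlapping and above GFP (217 to 229 CPM). ID1 mRNA was at 332, 342 and 284 CPM in ID2-labelled and 316, 339 and 321 CPM in ID3-labelled libraries. It stood at 337 to 354 CPM in GFP-labelled and at 245 to 250 CPM in ID1-labelled libraries. The log2 differences (ID2-labelled minus ID3-labelled, as everywhere below) were -0.03 ± 0.07 (SE) for ID1, -0.03 ± 0.07 for ID2 and -0.10 ± 0.07 for ID3, with adjusted p = 0.871, 0.877 and 0.468. ID4, with 5 to 7 counts in ID2-labelled and 3 to 10 in ID3-labelled libraries, fell below the filter; its mean in the ID4-labelled libraries was 224 CPM. The kit reads the 3′ end of a transcript, and the 3′ end of the vector's transcript is not given in the sources used here. Whether a vector copy of ID2 or ID3 was present or counted cannot be told from these values and was not tested. The groups are therefore called by their labels throughout.

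The groups differed at 1093 of the 12824 tested genes (8.52%; edgeR quasi-likelihood test, adjusted p under 0.05), 517 of them higher in ID2-labelled (4.03%) and 576 higher in ID3-labelled libraries (4.49%). With library totals in place of TMM, 427 were higher in ID2-labelled and 737 in ID3-labelled libraries. Without ID2 replicate 3 the count was 2126 (16.6%), 1086 higher in ID2-labelled (8.47%) and 1040 in ID3-labelled libraries (8.11%). Of the first set, 1068 genes (8.33% of those tested) were called both ways in the same direction, 511 higher in ID2-labelled and 557 in ID3-labelled libraries. The common dispersion was 0.00700 with all 6 libraries and 0.00335 without ID2 replicate 3, so a call is easily kept there. Without any 1 other library, 423 to 613 of the 1093 genes were called again. Leaving out any 1 of the other libraries gave between 429 (without ID3 replicate 2) and 647 calls (without ID2 replicate 2). The other counts were 469 without ID3 replicate 1, 522 without ID2 replicate 1 and 633 without ID3 replicate 3. Most differences were small: the median absolute log2 difference of the calls was 0.45 and the smallest 0.20. A change of more than 2-fold was seen for 66 genes higher in ID2-labelled and 77 higher in ID3-labelled libraries among the 1068. CPM ranges of the groups did not overlap at 3643 tested genes (28.4%).

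Against the other 12 libraries of the series, more of these genes set the ID2-labelled cells apart. All 3 ID2-labelled libraries lay outside the range of the other 12 at 1176 tested genes (9.17%), and all 3 ID3-labelled libraries at 458 (3.57%). Among the 1068 genes called both ways, the ID2-labelled libraries were outside at 555 (310 above and 245 below), the ID3-labelled libraries at 166 (122 above and 44 below), both at 10 and neither at 357. At 101 of the 1068 the groups lay on opposite sides of the GFP-labelled libraries, 42 with ID2-labelled above and 59 with ID3-labelled above. These genes were already picked for a difference between the groups. The share over all tested genes was not counted, so this count cannot be set against a background.

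**Figure D2:**
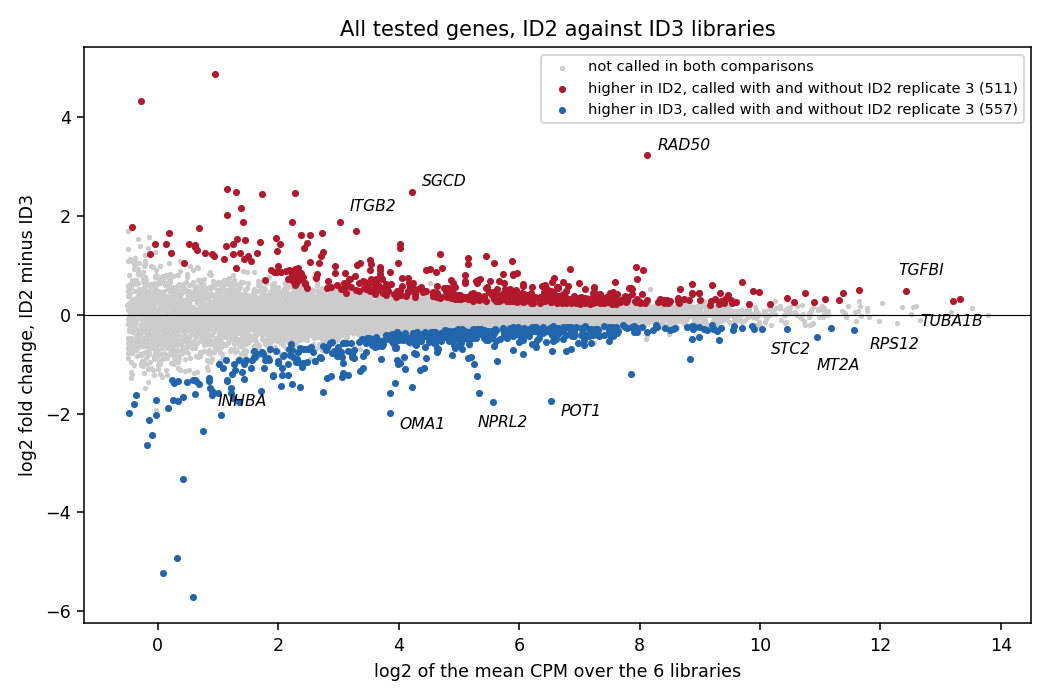
Each point is 1 tested gene, by the log2 of its mean CPM over the 6 libraries (x axis) and its log2 difference, ID2-labelled minus ID3-labelled (y axis). The 511 red and 557 blue genes were called with and without ID2 replicate 3, and RAD50 at 3.22 lies far above other genes of its level.

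RAD50 showed the largest difference among genes with a mean of 50 or more counts. Its product is the coiled-coil subunit of the MRN complex, which holds broken DNA ends together. RAD50 (GRCh37 chr5:131891711-131982041) was at 502, 479 and 539 CPM in the ID2-labelled libraries and at 52.7, 53.1 and 56.8 CPM in the ID3-labelled libraries, a 9.35-fold difference (log2 3.22 ± 0.07, adjusted p = 9.00e-11). The groups are far apart. GFP-, ID1- and ID4-labelled libraries stood at 58 to 66.4, 59.7 to 67.2 and 55.3 to 69.5 CPM, so that only the ID2-labelled libraries were high, and the ID3-labelled libraries lay just below GFP. The lncRNA gene TH2LCRR, which overlaps RAD50 on the opposite strand (chr5:131966281-131999964), was also higher in ID2-labelled libraries, at 7.71, 9.26 and 7.55 against 1.29, 1.28 and 1.85 CPM (log2 2.47 ± 0.21, adjusted p = 3.21e-05). Strand use in counting is not given in the sources used here, so reads of the pair cannot be told apart for certain. The next tested genes were KIF3A, at log2 0.21 (adjusted p = 0.211), and IRF1, at -0.34 (0.0304). The IRF1 call was lost without any 1 library other than ID2 replicate 3 (largest adjusted p = 0.101). None of the 3 partner genes looked up after these values were seen, MRE11A, NBN and ATM, was called, with log2 differences of 0.03 to 0.12.

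The second gene by fold was SGCD, which encodes delta-sarcoglycan of the dystrophin-associated membrane complex. SGCD (chr5:155297354-156194799) was at 33.9, 35.3 and 26 CPM in ID2-labelled and 5.44, 5.47 and 6.16 CPM in ID3-labelled libraries (log2 2.48 ± 0.14, adjusted p = 1.30e-06). Both groups were above GFP (1.74 to 1.96 CPM), and ID1-labelled libraries lay between them at 9.19 to 11.9 CPM. Among other sarcoglycan genes, looked up afterwards, SGCE was higher in ID2-labelled libraries as well (log2 0.85 ± 0.21, adjusted p = 0.0264; lost without any 1 library other than ID2 replicate 3, largest 0.115), SGCB (-0.03) was not called and SGCA was below the filter.

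Membrane and signalling genes followed. KCNK2, a background potassium channel, was at 8.74, 6.41 and 6.92 against 2.11, 1.99 and 1.85 CPM (log2 1.88 ± 0.20). ITGB2, the beta 2 integrin known from white blood cells, was at 13.7, 13 and 11.6 against 3.94, 2.56 and 3.93 CPM (log2 1.87 ± 0.17); its 4 known alpha partners ITGAL, ITGAM, ITGAX and ITGAD were all below the filter. EMC10, a subunit of the ER membrane complex that inserts membrane proteins, was at 13.4, 14.1 and 17.4 against 5.37, 3.84 and 4.67 CPM (log2 1.69 ± 0.16). None of the 8 fellow subunit genes looked up was called with all 6 libraries (log2 -0.21 to 0.16). Without ID2 replicate 3, EMC8 passed the threshold in the same edgeR test (adjusted p = 0.0234). For KCNK2, ITGB2 and EMC10 the groups are clear of one another, and GFP-labelled libraries were lowest for ITGB2 (0.631 to 0.83 CPM) and EMC10 (1.08 to 1.4 CPM). LPPR4, a brain lipid phosphatase-related protein gene, was at 11, 9.89 and 9.18 against 2.99, 2.91 and 3.63 CPM. IL1RN, the natural antagonist of the interleukin 1 receptor, was at 8.6, 7.66 and 9.88 against 2.58, 2.98 and 2.97 CPM, and MAPK11, p38 beta kinase, at 8.01, 6.06 and 9.6 against 3.2, 2.49 and 2 CPM. The protease inhibitor gene CSTA was at 7.71, 7.31 and 9.32 against 2.58, 2.98 and 3.34 CPM and C5orf63 at 5.36, 5.22 and 6.99 against 2.79, 1.14 and 2 CPM. TP73-AS1 was at 5.36, 5.22 and 7.41 against 1.84, 2.77 and 2 CPM; it overlaps TP73, the p53 relative, which had 40, 51 and 69 counts in ID2-labelled and 13, 8 and 6 counts in ID3-labelled libraries. The log2 differences of these 6 ran from 1.44 to 1.66, and the largest adjusted p was 0.00402, of C5orf63.

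A set of genes with separate roles in telomere protection, growth control and protein quality control was higher in ID3-labelled libraries than in the other 12 libraries of the series. POT1, the shelterin protein that covers single-stranded telomere ends (chr7:124462440-124570037), was at 44.5, 42.1 and 41.2 CPM in ID2-labelled and 137, 143 and 147 CPM in ID3-labelled libraries (log2 -1.74 ± 0.07, adjusted p = 4.86e-08). GFP (39.7 to 46.3 CPM), ID1 (36.7 to 38.8 CPM) and ID4 (34.3 to 41 CPM) stood with the ID2-labelled libraries. None of the 5 other shelterin genes, ACD, TINF2, TERF1, TERF2 and TERF2IP, was called (log2 -0.18 to 0.24), while POT1-AS1, on the opposite strand, differed the other way at log2 1.14 (adjusted p = 0.0119; 0.0568 without ID3 replicate 1 and 0.0514 without ID3 replicate 3). NPRL2, a subunit of the GATOR1 complex that holds mTORC1 off when amino acids are short (chr3:50384761-50388257), was at 21.9, 20.8 and 22.4 against 72.5, 78.6 and 69.1 CPM (log2 -1.76 ± 0.08, adjusted p = 1.87e-07). Its partner genes NPRL3 (0.13) and DEPDC5 (0.27) were not called. LCMT1, which methylates the catalytic subunit of phosphatase PP2A (chr16:25123052-25189552), was at 20.9, 19.4 and 20.3 against 59.8, 64.1 and 56.4 CPM (log2 -1.57 ± 0.08). OMA1, a mitochondrial inner membrane protease active under stress (chr1:58881056-59012474), was at 6.54, 6.62 and 4.24 against 22.1, 20.9 and 26.1 CPM (log2 -1.99 ± 0.16). For each of these 4 genes the ID2-labelled range overlapped the GFP-labelled range, and all 3 ID3-labelled libraries lay above it.

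The remaining genes of this direction were less uniform against GFP. ZNF280D was at 8.6, 6.62 and 6.57 against 22.8, 22.2 and 20.6 CPM, the ciliogenesis kinase TTBK2 at 2.94, 3.76 and 3.46 against 9.45, 10.9 and 9.5 CPM and the neuronal protein gene BEX1 at 9.85, 9.54 and 10.4 against 25.9, 28.4 and 28.2 CPM. Both groups lay above GFP for these 3. BEX4 and BEX2, near BEX1 on chromosome X, were also higher in ID3-labelled libraries (log2 -0.87 and -0.95, adjusted p = 0.00186 and 0.00891); the BEX genes are close copies and could share reads. INHBA, which encodes the activin A subunit, was at 2.5, 2.65 and 3.04 against 8.03, 6.89 and 7.64 CPM, with GFP lowest (1.26 to 1.99 CPM). NBL1, a secreted BMP antagonist, was at 2.35, 2.16 and 3.18 against 6.12, 7.46 and 6.75 CPM, and the groups lay on either side of GFP (5.15 to 5.68 CPM); NBL1 overlaps MINOS1-NBL1 on its own strand. FOXC2-AS1 was at 2.5, 2.44 and 1.76 against 6.26, 6.11 and 5.79 CPM, below GFP in both groups (7.78 to 8.62 CPM). The gene it overlaps, FOXC2, a forkhead factor of mesenchyme, went the same way (log2 -1.49, adjusted p = 0.00386). The complement inhibitor gene CFI was at 9.48, 9.4 and 6.71 against 20.1, 23.4 and 22.9 CPM, and PRSS12, a neuronal serine protease, at 3.01, 4.46 and 4.73 against 9.05, 11.9 and 8.9 CPM. Both lie on chromosome 4, where the median of neighbouring genes was itself -0.20. The log2 differences of these 8 genes ran from -1.59 to -1.29, and the largest adjusted p was 0.00176, of PRSS12. All 24 genes named so far by fold were called under every alternative tried.

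**Figure D3:**
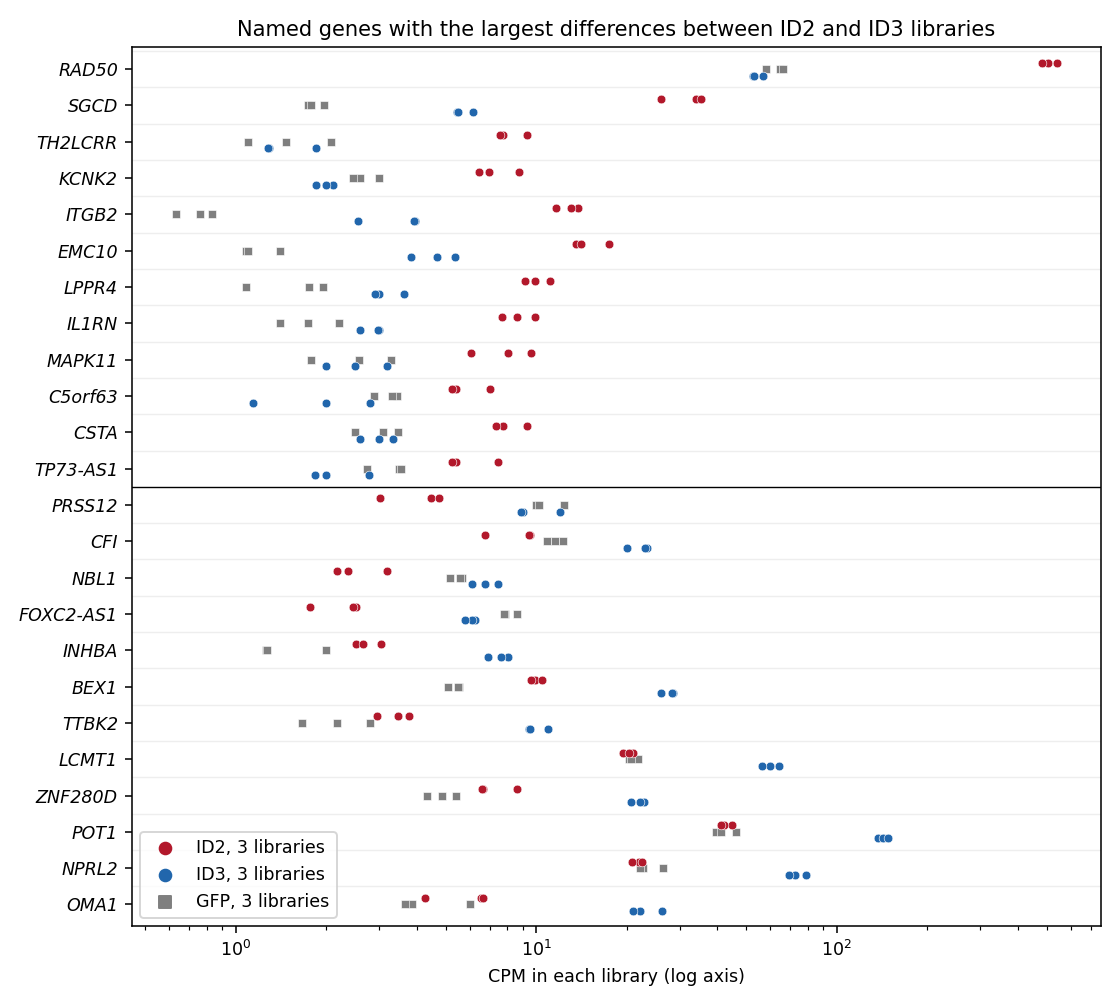
CPM (log axis) of the 12 genes of each direction with the largest fold, 1 point for each of the 3 ID2-labelled (red), 3 ID3-labelled (blue) and 3 GFP-labelled libraries (grey squares). Red and blue points do not overlap in any row; in the rows of POT1, NPRL2, LCMT1 and OMA1 the red points lie with the grey squares, and in that of RAD50 the blue points lie near them.

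Some genes of 10 to 50 mean counts were close to absent in 1 group. By their fitted log2 difference, 17 such genes called both ways passed 4-fold, 7 higher in ID2-labelled and 10 in ID3-labelled libraries; fitted folds of such low counts depend on the prior count, so the counts are given. They were picked out after their values were seen. A gene near 0 in 1 group reaches a mean of 10 counts only through the other group. This holds for MLANA, PABPC4L, IGFALS, ASPN and AGER, so their large folds are partly set by the filter. MLANA, the melanocyte antigen gene, had 41, 56 and 61 counts in ID2-labelled libraries, 1, 3 and 1 in ID3-labelled libraries and at most 8 in any of the other 9. PABPC4L had 20, 34 and 13 counts against 1 in each ID3-labelled library and at most 2 elsewhere. In the other direction, IGFALS, which encodes the acid-labile subunit that carries IGF in serum, had 57, 34 and 34 counts in ID3-labelled libraries, 1, 1 and 0 in ID2-labelled libraries and at most 1 elsewhere. ASPN, a small matrix proteoglycan gene, had 32, 25 and 45 counts against 0, 0 and 3, and AGER, the receptor for glycated proteins, 28, 35 and 40 against 2, 3 and 5. UGT1A3 had 104, 102 and 28 counts in ID2-labelled and 10, 16 and 17 in ID3-labelled libraries; it shares exons with the other UGT1A genes, and its call was lost without ID3 replicate 1 (adjusted p = 0.0593).

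Among abundant transcripts the differences were small in fold and large in reads. TGFBI, a matrix protein induced by TGF-beta, was at 6104, 6453 and 6645 CPM in ID2-labelled and 4454, 4760.1 and 4441 CPM in ID3-labelled libraries (log2 0.49 ± 0.06, adjusted p = 0.000379). Both groups were above GFP (2991 to 3209 CPM). The secreted protein gene CCDC80 was at 3531, 3595 and 4089.5 against 2672, 2724 and 2560.4 CPM (log2 0.50 ± 0.07), and DYNC1H1, the dynein heavy chain, at 1886, 1988 and 2052 against 1361, 1567 and 1442 CPM (log2 0.44 ± 0.06). ACTB, beta-actin, was at 3046, 3060.3 and 3063 against 2249.8, 2228 and 2227 CPM (log2 0.45 ± 0.05, adjusted p = 0.000262), a gap many times its spread, and the ID3-labelled libraries overlapped GFP (2107 to 2268 CPM). TUBA1B was at 11399, 11442 and 11049.9 against 7788, 9537 and 9853 CPM (log2 0.32 ± 0.08) and the calcium-binding protein gene S100A6 at 10561, 10369 and 10023 against 8462, 8157 and 8799 CPM (log2 0.28 ± 0.06). TUBA1B, an alpha-tubulin with close copies, lost its call without ID2 replicate 1 (adjusted p = 0.103), ID2 replicate 2, ID3 replicate 1 or ID3 replicate 2, and S100A6 without ID2 replicate 1 or ID3 replicate 2 (largest adjusted p = 0.060).

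Higher in ID3-labelled libraries were ACTL8, an actin-like testis gene, at 310.2, 311 and 337 against 560.4, 636 and 593 CPM (log2 -0.90 ± 0.07, adjusted p = 1.47e-05), and the metallothionein MT2A at 1619.9, 1621 and 1779 against 2230.5, 2365 and 2214 CPM (log2 -0.44 ± 0.06). ACTL8 lay below GFP (341 to 354 CPM) in ID2-labelled and above it in ID3-labelled libraries. RPS12 was at 2684, 2603 and 2812 against 3116, 3418 and 3467 CPM (log2 -0.30 ± 0.06), TMEM158 at 2088, 2099 and 2114 against 2362, 2569 and 2608 CPM (log2 -0.26 ± 0.06) and the secreted glycoprotein gene STC2 at 1206, 1265 and 1307 against 1479.9, 1598 and 1502 CPM (log2 -0.28 ± 0.06). Both groups were below GFP for these 3 and for MT2A. The calls of these 3 did not hold with every library left out: without ID3 replicate 2 the adjusted p was 0.060 for RPS12, 0.086 for TMEM158 and 0.075 for STC2, and without ID2 replicate 1 it was 0.051, 0.073 and 0.070. RPS12 was also lost without ID3 replicate 3 (0.056), and TMEM158 without ID2 replicate 2 (0.056) or ID3 replicate 3 (0.080).

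The lists that follow were described by the number of called members and the median log2 difference of the tested members, beside a share of 8.52% called and a median of -0.01 over all tested genes. Counts given without ID2 replicate 3 stand beside the higher share of 16.6% called over all tested genes in that fit. They are given for some lists only, and counts of other lists also changed in that fit. There, 7 YAP and TAZ targets were higher in ID2-labelled and 1 in ID3-labelled libraries. The same counts were 6 and 4 for hypoxia targets and glycolysis. They were 5 and 7 for cytosolic ribosomal proteins and 7 and 6 for the nuclear-encoded respiratory chain. No list was tested as a set.

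The list of E proteins, HES and HEY repressors and related factors had 13 tested members of 25. Of these, 2 were higher in ID2-labelled libraries and none in ID3-labelled libraries (median 0.18). No E protein, HES or HEY gene of the list was called with all 6 libraries. The E protein gene TCF12, for example, was at log2 -0.07 (adjusted p = 0.747). The 2 called genes, TWIST1 and MSC, were other basic helix-loop-helix factors, of mesoderm. TWIST1 was at 75.9, 73.9 and 56.4 against 52.2, 47.5 and 55.2 CPM (log2 0.41 ± 0.11, adjusted p = 0.0332) and MSC at 9.33, 9.96 and 9.11 against 7.21, 5.18 and 6.31 CPM (log2 0.60 ± 0.15, adjusted p = 0.0291). The TWIST1 call was lost without any 1 library other than ID2 replicate 3 (largest adjusted p = 0.160, without ID3 replicate 2), and that of MSC without ID2 replicate 1, ID2 replicate 2, ID3 replicate 2 or ID3 replicate 3 (largest 0.126, without ID3 replicate 2). Without ID2 replicate 3 the count was 4 to 0, with 16.6% of all tested genes called in that fit.

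Of 42 tested genes of BMP and TGF-beta signalling, 2 were higher in ID2-labelled and 3 in ID3-labelled libraries (median -0.04). TGFBI and LTBP1, which stores latent TGF-beta in the matrix, were higher in ID2-labelled libraries (LTBP1 67.5, 72.2 and 66.1 against 45.9, 52.3 and 53.1 CPM, log2 0.45 ± 0.08). The ligand subunit gene INHBA and the co-receptor gene ENG were higher in ID3-labelled libraries (ENG 18.7, 18.5 and 19.98 against 28.7, 28.8 and 24.2 CPM, log2 -0.52 ± 0.10). ENG lost its call without ID3 replicate 1 (adjusted p = 0.051) or ID3 replicate 2 (0.054) and lies on the part of chromosome 9 described below.

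In the list of LMO2, LDB1 and STAT3 signalling genes, 1 of 24 tested members was higher in ID2-labelled and 3 in ID3-labelled libraries (median -0.11). LDB2, the second LIM-domain-binding adaptor, was at 3.97, 4.88 and 4.38 against 11.4, 10.6 and 9.05 CPM (log2 -1.23 ± 0.16, adjusted p = 0.000531) on chromosome 4. STAT5A was at 8.82, 8.29 and 10.4 against 16.1, 16 and 18.8 CPM (log2 -0.89 ± 0.13) and the STAT3-activating cytokine gene IL11 at 21.4, 17.6 and 18.8 against 27, 28.3 and 30.3 CPM (log2 -0.57 ± 0.10).

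Of 37 tested genes of the actin cytoskeleton and serum response factor targets, 9 were higher in ID2-labelled and 1 in ID3-labelled libraries and 27 were not called (median 0.10; 10 and 1 without ID2 replicate 3). The actin-binding protein gene CALD1 was at 1005, 978 and 1066 against 615, 634 and 672 CPM (log2 0.67 ± 0.06, adjusted p = 5.63e-05). The calponin genes CNN1, at 61.8, 66.7 and 68.2 against 41.5, 43.3 and 41 CPM (log2 0.64 ± 0.07), and CNN2, at 91.7, 91.5 and 82 against 59.6, 58.9 and 61.8 CPM (log2 0.56 ± 0.07), and ACTB, given above, complete the largest. For CALD1, CNN1 and CNN2 both groups lay above GFP (343 to 392, 3.97 to 7.92 and 53.3 to 54.5 CPM).

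Adhesion and matrix genes were called in both directions. Of 23 tested integrins, cadherins and CADM genes, 6 were higher in ID2-labelled and 3 in ID3-labelled libraries (median 0.12). Beside ITGB2, ITGA1 was at 12, 14.2 and 12.6 against 10.1, 8.45 and 8.46 CPM (log2 0.53 ± 0.13), whereas the laminin receptor subunit gene ITGA6 was at 4.48, 4.67 and 4.59 against 8.03, 8.81 and 8.53 CPM (log2 -0.88 ± 0.14) and ICAM1 at 2.13, 1.95 and 1.69 against 3.94, 3.98 and 2.89 CPM (log2 -0.91 ± 0.22). Calls of ITGA1 and ICAM1 were each lost without ID2 replicate 1, ID2 replicate 2 or ID3 replicate 2, that of ITGA1 also without ID3 replicate 3 and that of ICAM1 without ID3 replicate 1 (largest adjusted p = 0.111 and 0.114, both without ID3 replicate 2). Collagens and laminins had 6 higher in ID2-labelled and 4 in ID3-labelled libraries of 36 tested (median 0.03). COL13A1, a transmembrane collagen, was at 13.5, 13.7 and 13.9 against 31.1, 27.3 and 28.6 CPM (log2 -1.08 ± 0.09, adjusted p = 4.57e-05), and GFP was higher still (74.2 to 80.1 CPM). LAMA4 was at 106, 114 and 133 against 77.5, 84.1 and 78.9 CPM (log2 0.55 ± 0.09). Metalloproteinases and their inhibitors had 3 and 2 of 24. ADAM8 was at 8.74, 9.75 and 8.75 against 3.81, 4.19 and 3.86 CPM (log2 1.20 ± 0.15) and the inhibitor gene TIMP2 at 720.2, 771 and 758 against 512, 553 and 581 CPM (log2 0.45 ± 0.06). Among plasminogen activators and serpins none of 12 was higher in ID2-labelled libraries and 2 were higher in ID3-labelled libraries, the larger in reads SERPINE2 at 111, 109.6 and 101 against 164, 168 and 160.4 CPM (log2 -0.61 ± 0.06). F3, tissue factor, from the list of YAP and TAZ targets (1 higher in each group of 27), was at 68.3, 73.2 and 41.1 against 26.3, 26.6 and 26.6 CPM (log2 1.20 ± 0.17); ID2 replicate 3 was the lowest of its group, and without it the log2 difference was 1.42.

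Of 38 tested genes of cholesterol and fatty acid synthesis, 7 were higher in ID2-labelled and 1 in ID3-labelled libraries and 30 were not called (median 0.15; 12 and 2 without ID2 replicate 3). The desaturase gene SCD was at 1127, 1130.0 and 1264 against 825, 826 and 896 CPM (log2 0.47 ± 0.06, adjusted p = 0.000998), EBP, a sterol isomerase, at 179, 178 and 179.7 against 137, 143 and 149 CPM (log2 0.32 ± 0.06) and FDPS, which makes farnesyl pyrophosphate, at 160.2, 149 and 149.9 against 120.03, 119 and 129 CPM (log2 0.32 ± 0.06). For these 3 the ID2-labelled libraries lay above GFP and the ID3-labelled libraries below (1074 to 1114, 170.2 to 176 and 132 to 148 CPM). SREBF1, the regulator of lipid genes, was at 59.4, 54.3 and 46.2 against 43.3, 36.8 and 40.2 CPM (log2 0.41 ± 0.10). The call of FDPS was lost without ID2 replicate 1, ID3 replicate 1 or ID3 replicate 2 (largest adjusted p = 0.067), and that of SREBF1 without any 1 library other than ID2 replicate 3 (largest 0.128).

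Genes of amino acid supply and stress were split. Amino acid transporters had 2 members higher in ID2-labelled and 5 in ID3-labelled libraries of 24 tested (median -0.07). SLC7A5, the leucine transporter, was at 2.94, 2.16 and 2.96 against 6.73, 5.47 and 6.53 CPM (log2 -1.22 ± 0.19, adjusted p = 0.00241), and its heavy chain SLC3A2 at 34.2, 39.3 and 41.2 against 56.7, 52.3 and 50.1 CPM (log2 -0.47 ± 0.09). In both, GFP-labelled libraries were higher than either group (30.4 to 32.6 and 67.3 to 74.1 CPM). The neutral amino acid carrier SLC1A4 went the other way, at 6.32, 6.06 and 5.58 against 2.65, 3.84 and 3.63 CPM (log2 0.83 ± 0.19), a call lost without ID2 replicate 1, ID2 replicate 2 or ID3 replicate 1 (largest adjusted p = 0.079). ATF4 stress regulators had none and 3 of 18 (median -0.08), among them DDIT4, an mTORC1 inhibitor, at 165, 155 and 164 against 201, 207 and 234 CPM (log2 -0.41 ± 0.07), and the pseudokinase gene TRIB3 at 3.82, 4.53 and 5.01 against 8.3, 7.24 and 6.9 CPM (log2 -0.75 ± 0.16). TRIB3 was lost without ID2 replicate 1, ID2 replicate 2, ID3 replicate 1 or ID3 replicate 2 (largest adjusted p = 0.078). Serine, glycine and folate enzymes had 1 and 2 of 20, and asparagine, proline and transaminase enzymes 2 and 2 of 15; the proline enzyme gene PYCR1 was at 271, 265 and 273 against 203, 199 and 199.99 CPM (log2 0.43 ± 0.06), higher in ID2-labelled libraries.

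None of 27 tested NRF2 targets was higher in ID2-labelled and 6 were higher in ID3-labelled libraries, while 21 were not called and the median was close to that of all tested genes (-0.02; 1 and 9 without ID2 replicate 3). The aldo-keto reductase gene AKR1C3 was at 27.3, 25.8 and 25.6 against 39.4, 41.1 and 36.3 CPM (log2 -0.57 ± 0.08) and AKR1C2 at 44.5, 46 and 49.9 against 64.5, 63.6 and 66.8 CPM (log2 -0.47 ± 0.07); the AKR1C genes are close copies. Thioredoxin, TXN, was at 467, 484 and 333 against 572, 598 and 593 CPM (log2 -0.46 ± 0.11), with ID2 replicate 3 the lowest, and at log2 -0.30 without that library; its call was lost without any 1 ID3-labelled library (largest adjusted p = 0.109). The cystine carrier SLC7A11 was at 11.2, 14.6 and 12.9 against 19.2, 16.1 and 18.1 CPM (log2 -0.46 ± 0.12), lost without ID2 replicate 1 or any 1 ID3-labelled library (largest adjusted p = 0.153, without ID3 replicate 1). TXN and SLC7A11 lie on chromosomes 9 and 4. Metallothioneins, also close copies, had 1 higher in ID2-labelled and 2 in ID3-labelled libraries of 8, with MT1F at 46.7, 52.2 and 57.2 against 34.4, 39.2 and 33.8 CPM (log2 0.54 ± 0.09) opposite to MT2A. Aldehyde dehydrogenases had 2 and 1 of 12. ALDH4A1 was at 44.5, 41.3 and 40.2 against 25.3, 25.4 and 30.04 CPM (log2 0.64 ± 0.09) and ALDH2 at 1.69, 2.58 and 2.47 against 5.51, 5.54 and 4.9 CPM (log2 -1.24 ± 0.20).

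The IGF axis had none higher in ID2-labelled and 4 higher in ID3-labelled libraries of 14 tested (median -0.07), namely STC2, IGFBP3, IGFBP4 and PAPPA. The binding protein gene IGFBP4 was at 60.9, 60.1 and 62 against 93.2, 91 and 91.8 CPM (log2 -0.59 ± 0.06, adjusted p = 0.000169), and PAPPA, the protease that cuts it, at 237, 238 and 263 against 302, 325 and 313 CPM (log2 -0.35 ± 0.06), on chromosome 9. IGFBP3 was at 80.2, 89.8 and 64.8 against 107, 116 and 113 CPM (log2 -0.52 ± 0.10), a call lost without ID3 replicate 2 (adjusted p = 0.058). Of 28 tested genes of IL1, chemokines and NF-kB feedback, IL1RN alone was higher in ID2-labelled libraries and 3 were higher in ID3-labelled libraries. TNFAIP2 was at 22.9, 26.3 and 21.2 against 55.2, 56.9 and 55.2 CPM (log2 -1.25 ± 0.09, adjusted p = 1.47e-05), the macrophage growth factor gene CSF1 at 101, 109 and 97.1 against 158, 143 and 152 CPM (log2 -0.56 ± 0.07) and CXCL8, interleukin 8, at 8.45, 8.22 and 2.61 against 14.7, 13.2 and 14.5 CPM (log2 -1.14 ± 0.28). ID2 replicate 3 was lowest for CXCL8, whose log2 difference was -0.76 without it; its call was lost without any 1 ID3-labelled library (largest adjusted p = 0.118). Interferon-stimulated genes had none and 3 of 35 (median 0.05), the widest IFIT2 at 1.1, 0.697 and 0.918 against 3.13, 2.2 and 3.12 CPM (log2 -1.63 ± 0.28). MHC class I and antigen processing had 2 and 3 of 19. HLA-B was at 515, 494 and 564 against 765, 748 and 736 CPM and HLA-C at 99.2, 93.8 and 91.4 against 125, 121 and 129 CPM, both with the groups on either side of GFP (579 to 603 and 99.6 to 107 CPM). The log2 differences were -0.51 ± 0.06 and -0.40 ± 0.07. These close copies each have several entries in the table (6 and 7), so their reads may be split. ERAP2, which trims peptides for class I, went the other way at 17.1, 17.4 and 15 against 10.7, 8.17 and 8.98 CPM (log2 0.83 ± 0.13).

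Among glioma stemness and glial differentiation genes, 2 and 2 of 17 tested were called (median -0.19). CSPG4, the NG2 proteoglycan, was at 39.6, 42.8 and 53.5 against 73.9, 82.3 and 66.4 CPM (log2 -0.71 ± 0.11) and SOX9, a glial transcription factor, at 4.41, 3.62 and 2.75 against 7.96, 5.97 and 7.34 CPM (log2 -0.98 ± 0.20). The neuronal tubulin gene TUBB3 was at 219, 215 and 243 against 173, 164 and 166 CPM (log2 0.43 ± 0.07) and MAP2 at 13.1, 14 and 15.8 against 10.7, 9.52 and 10.5 CPM (log2 0.48 ± 0.12). SOX9 lost its call without ID3 replicate 1 (adjusted p = 0.062), and MAP2 without any 1 library other than ID2 replicate 3 (largest 0.124). Notch and Wnt genes had 4 and 2 of 28. The ligand gene WNT5B was at 89.2, 83.9 and 71.5 against 55.4, 49.4 and 53.2 CPM (log2 0.63 ± 0.09, adjusted p = 0.00113), far above GFP in both groups (13.3 to 14.4 CPM), and TCF7 at 199, 209 and 221 against 165, 155 and 143 CPM (log2 0.44 ± 0.07).

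Cytosolic ribosomal protein genes had 1 and 3 called of 79, the nuclear-encoded respiratory chain none and 1 of 76, DNA replication and mitosis 1 and 4 of 56 and aminoacyl-tRNA synthetases 1 and none of 37. Their medians lay between -0.02 and 0.05. The largest among the dividing-cell genes was BUB1B, a mitotic checkpoint kinase, at 19.98, 19.4 and 18.6 against 33, 30.1 and 28.8 CPM (log2 -0.67 ± 0.09). CDK inhibitors, D cyclins and p53 targets had none and 3 of 22 (median -0.12), led by TP53INP1 at 25.6, 26.5 and 25.5 against 40.9, 41.3 and 35.2 CPM (log2 -0.60 ± 0.09). ER unfolded protein response genes had 4 and 2 of 24, with CRELD2 at 63.8, 69.7 and 73.1 against 42.4, 51.4 and 53.1 CPM (log2 0.49 ± 0.09), and heat shock proteins 3 and 1 of 30, with HSPB1 at 333, 289 and 282 against 235, 211 and 231 CPM (log2 0.42 ± 0.08). Hypoxia targets and glycolysis had 1 and 4 of 38; ANGPTL4 was at 23, 25.8 and 27 against 51.1, 52.3 and 47.8 CPM (log2 -0.995 ± 0.086, adjusted p = 4.33e-05). Receptor tyrosine kinases had none and 1 of 21, PDGFRB at 22.6, 23.7 and 27.1 against 36.2, 33 and 35.5 CPM (log2 -0.51 ± 0.09). ERK feedback genes had 1 and 2 of 22, with SH2B3 at 33.4, 39.9 and 37 against 53.3, 52.1 and 51.9 CPM (log2 -0.51 ± 0.08), and AP-1 and immediate early genes none and 2 of 22. In the list of other brain cell types 1 of 9 tested genes was called, the lysosomal gene CD68 at 74, 72.3 and 71.2 against 60.5, 55.4 and 64.5 CPM (log2 0.27 ± 0.07); it was lost without ID2 replicate 1, ID2 replicate 2, ID3 replicate 1 or ID3 replicate 2 (largest adjusted p = 0.180). None of the 13 mitochondrially encoded mRNA genes has an entry in the table.

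**Figure D4:**
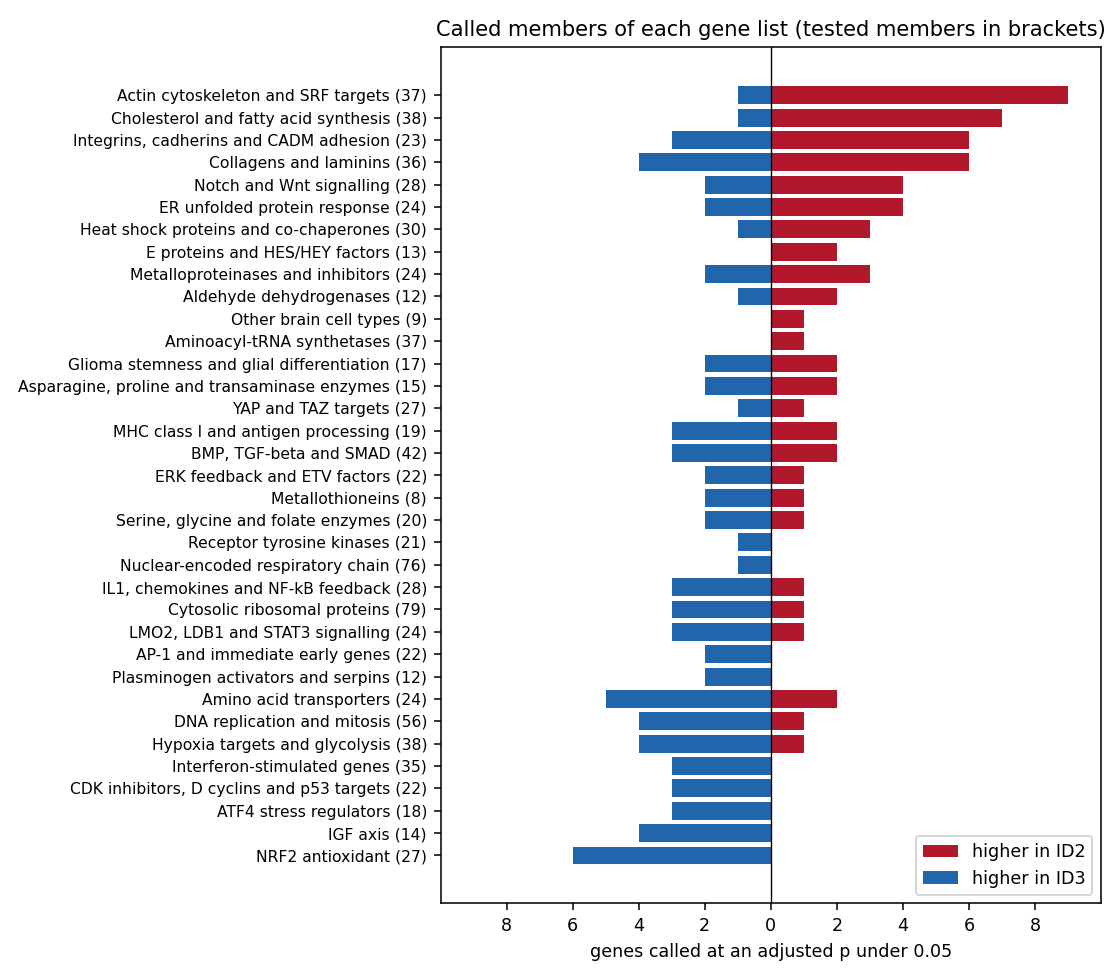
Number of list members called at an adjusted p under 0.05, higher in ID2-labelled (red, to the right) or ID3-labelled libraries (blue, to the left), with the number tested in brackets. Actin cytoskeleton and SRF targets reach 9 to the right against 1, and NRF2 antioxidant genes 6 to the left against 0.

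Where the genes lie also parted the groups. Of 458 tested genes on chromosome 4, 2 were higher in ID2-labelled and 57 in ID3-labelled libraries, and their median log2 difference was -0.18 (8 and 84, median -0.15, without ID2 replicate 3). Over all tested genes, 8.52% were called with all 6 libraries and 16.6% without ID2 replicate 3. In consecutive windows of about 45 tested genes, all 10 windows of chromosome 4 had medians between -0.23 and -0.14. On chromosome 9 the shift began within the chromosome: from position 74477368 on (GRCh37), 3 of 363 tested genes were higher in ID2-labelled and 70 in ID3-labelled libraries, with window medians of -0.26 to -0.11, whereas the 138 genes before it had 7 and 6 calls and window medians of -0.02 to 0.05. Chromosome 16 was alike, with 5 and 45 calls among 264 genes from position 46736194 on (window medians -0.22 to -0.13) and 5 and 5 among the 315 before (-0.02 to 0.09). Between positions 47487485 and 67804111 of chromosome 11, 1 and 26 of 220 genes were called. Of all 277 windows, 39 had a median below -0.1, 28 of them on these 4 chromosomes, and 11 had one above 0.1.

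The levels by library follow. The median of the chromosome 4 genes, as log2(CPM + 1) less the mean of all 15 libraries, was -0.147 to -0.0756 in the ID2-labelled libraries and 0.0521 to 0.0702 in the ID3-labelled libraries. GFP (0.0235 to 0.0445) and ID1 (0.0569 to 0.0725) stood with ID3, while ID4 was low as well (-0.0657 to -0.0512). On the later part of chromosome 9 the ID2-labelled libraries were at -0.162 to -0.124 and the other 12 libraries between 0.0223 and 0.0486. On the later part of chromosome 16 they were at -0.154 to -0.110, and the other 12 between -0.0189 and 0.0938. Outside chromosomes 4 and 9, 948 of 11865 tested genes were called (7.99%), 505 higher in ID2-labelled and 443 in ID3-labelled libraries. Named genes on the shifted parts are CFI, PRSS12, LDB2, CXCL8 and SLC7A11 (4), ENG, TXN and PAPPA (9), MT2A, MT1F, TUBB3, SLC7A5, CRISPLD2, FOXC2 and FOXC2-AS1 (16) and SLC3A2 (11), and ASPN also lies on that part of chromosome 9. Elsewhere, windows with a median below -0.1 hold COL13A1, DDIT4 and CFAP70 (chromosome 10, -0.13), SCD (10, -0.14), ADAM8 (10, -0.17), ALDH2 and SH2B3 (12, -0.24), CSF1 (1, -0.13) and PLAT (8, -0.14). SCD and ADAM8 differed in the opposite direction to their windows. Windows with a median above 0.1 hold KCNK2 and FDPS (1), ITGA1 (5), DGKI (7), SREBF1 (17) and EBP (X), with medians of 0.12 to 0.18. The part of these regional shifts in the genes' differences was not tested.

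**Figure D5:**
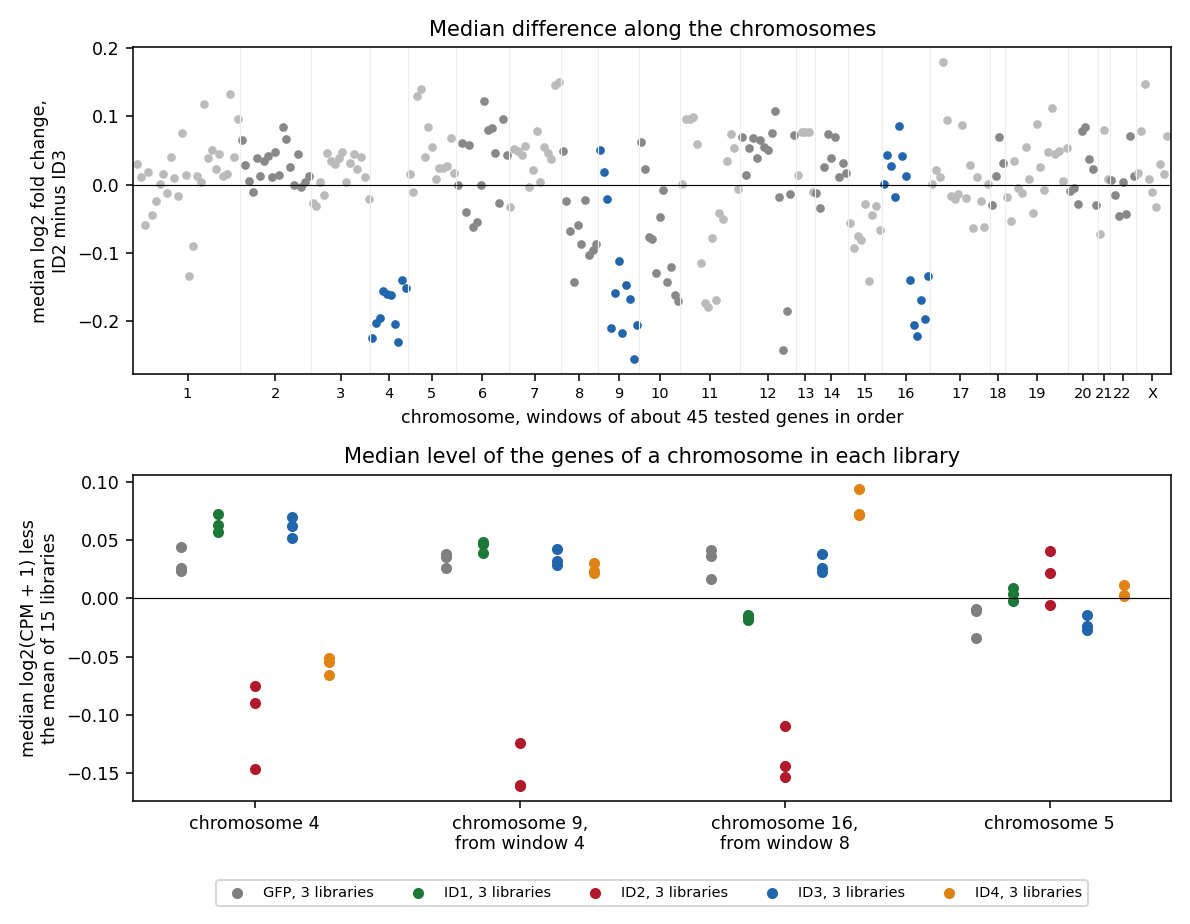
Top: median log2 difference, ID2-labelled minus ID3-labelled (y axis), of consecutive windows of about 45 tested genes along each chromosome (x axis), with chromosomes 4, 9 and 16 in blue. Bottom: median level of a region's genes in each of the 15 libraries, as log2(CPM + 1) less the mean of all 15 (y axis), where the ID2-labelled libraries lie at -0.162 to -0.0756 in the 3 shifted regions and chromosome 5 is shown for reference.

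Without ID2 replicate 3, 25 genes lost their call, 6 higher in ID2-labelled and 19 in ID3-labelled libraries. The largest of them were KLRC2 (1.54), FCMR (0.89), ZNF789 (0.65) and B3GALNT1 (0.57), and CFAP70 (-1.26), CRISPLD2 (-1.06), DGKI (-0.94) and SLC26A4 (-0.89), as log2 differences over all 6 libraries. Their adjusted p without that library was 0.0573 to 0.0731, just past the threshold, and 1058 genes gained a call. Each of these 8 genes also lost its call without other single libraries.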

How the data were processed

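The authors sequenced libraries of a 3′ kit (QuantSeq) and deposited 1 table with raw read counts per gene and their own normalized log2 values for 15 libraries; the submitters' processing notes name BWA and Bowtie2, the build was hg19, and filters and strand use are not given in the sources used here. The deposited counts of the 6 ID2- and ID3-labelled libraries were normalized by TMM and tested with edgeR 4.0.16 (quasi-likelihood test, 1 mean per group, no block) in R 4.3.3 at genes with a mean of 10 or more counts. Adjusted p-values are Benjamini-Hochberg values over all tested genes, with a threshold of 0.05. Levels are CPM; those of GFP-, ID1- and ID4-labelled libraries were scaled over all 15 libraries, which moved CPM of the 6 by at most 0.401% at genes of 50 or more mean counts. DESeq2 1.42.0, limma 3.58.1 on log2 CPM and on the deposited log2 values, other scalings and filters, a replicate block and leaving out each library were alternatives.

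Named genes were the ID family; in each direction the 12 with the largest fold and the 6 with the largest CPM difference among genes called with all 6 libraries and without ID2 replicate 3, without overlap and with a mean of 50 or more counts; and up to 4 called members of each of 37 lists; some of them are not reported here. The comparison, its lists and members were chosen with earlier results of these data known. Partner genes, low-count genes, windows and neighbours were looked up after values were seen. Positions come from GENCODE v44 on GRCh37, matched by symbol for 11674 tested genes and by an older symbol for 734; 378 had none and 38 were ambiguous. The test was checked on simulated counts with 200 changed genes. That check held no deviating library and no changes as small as most of the called differences, so it does not cover these. Same-numbered libraries did not deviate together (correlations 0.02, -0.09 and -0.24), so numbers were not used as pairs.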

Additional observations from a re-analysis of the deposited data

Results flagged for a closer look

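At the named genes that follow, the ID2-labelled and ID3-labelled libraries lay on opposite sides of all 3 GFP-labelled libraries, and the difference between the groups was itself called by edgeR's quasi-likelihood test. Both comparisons share the GFP-labelled libraries. The genes were named for a difference between the groups, and no share over all tested genes is given beside them. The calls of 4 of these genes did not hold with every library left out: that of PLAT was lost without any 1 library other than ID2 replicate 3 (adjusted p = 0.061 to 0.124), that of ALDH6A1 without ID2 replicate 1, ID3 replicate 2 or ID3 replicate 3 (0.0586 to 0.0655), and those of FDPS and TXN as given above. Above GFP in ID2-labelled and below it in ID3-labelled libraries were RAD50 (log2 difference 3.22), KCNK2 (1.88), C5orf63 (1.56), ERAP2 (0.83), ALDH6A1 (0.54), SCD (0.47), TCF7 (0.44), SDF2L1 (0.42), EBP (0.32) and FDPS (0.32). Below GFP in ID2-labelled and above it in ID3-labelled libraries were NBL1 (-1.40), CFI (-1.37), TNFAIP2 (-1.25), ACTL8 (-0.90), PLAT (-0.67), SERPINE2 (-0.61), TP53INP1 (-0.60), HLA-B (-0.51), TXN (-0.46), HLA-C (-0.40) and PFKFB3 (-0.37).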

How the results depend on the processing

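The count of 1093 called genes became 1955 with all 15 libraries in 1 fit, 413 with the replicate block, 146 when a change of more than 2-fold was also asked for and 391 when the study's rule of a 2-fold change and an unadjusted p was applied to the deposited log2 values of all 25737 entries, 143 of them among the 1093. Leaving out 1 library each gave 429 to 2126 calls. DESeq2 (1043), limma on log2 CPM (1080) or on deposited log2 values (1071), DESeq2 size factors (1091), library totals (1164), no filter beyond 1 count (1562), a mean of 50 or more counts (1002) and, chosen after seeing the data, genes outside chromosomes 4 and 9 (948) stayed within 1.5 times. The 2126 calls without ID2 replicate 3 became 2399 with the other 14 libraries in the fit and 1477 with DESeq2, both chosen after seeing the data. The replicate block, with numbers that were not shown to pair the libraries, gave 413 calls, and all 413 were among the 1093. Of the 145 called genes named in the text or its lists, 78 were called under every alternative and 66 lost the call without at least 1 library, with fewer libraries in those fits. The named genes called in the comparison kept their direction throughout. Among the uncalled ID genes, the log2 difference of ID1 was -0.0801 to 0.0546 with 1 library left out (0.0546 without ID2 replicate 3 and 0.0062 without ID3 replicate 2), and that of ID2 was -0.0495 to 0.0135 (0.0135 without ID3 replicate 2). In these libraries 3 counts are worth 0.208 to 0.224 CPM, which limits what can be read from genes of a few counts.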
